A study of Caenorhabditis elegans with 2 samples.

Results

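The regions described here are 276 candidate peaks of tagged REF-1 whose summits lay on tandem repeats, out of 72151 candidates in the authors' ranked list between replicates. They were chosen by the authors' peak signal and by sequence. The first 3000 entries of the list, ordered by signal, were taken, and an entry was a member where at least 75% of the bases within 100 bp of its summit matched the base a fixed distance away, at one distance of 8 to 100 bp. The remaining 2724 of the first 3000 entries did not meet this sequence rule and are called the other entries. This distance is called a shift, the shortest one near the best match is the period, and members are numbered M1 to M276 by rank.

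Chromatin immunoprecipitation with sequencing (ChIP-seq) was done on whole Caenorhabditis elegans embryos of the midembryo stage (3 hours), with 2 biological replicates in 1 group. The strain, RW12224, carried the allele ref-1::TY1::EGFP::3xFLAG, made by CRISPR at the endogenous ref-1 locus on chromosome II, and eggs were obtained by bleaching. Both replicates therefore held the same tag and the same strain, the antibody recognised GFP, and sheared DNA was 200 to 800 bp long, per the labels. No library of an untagged strain and no input library was analysed here, so every value below is a value of the tagged strain alone. The depth of the libraries is unknown.

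A tandem repeat is a run of copies of one unit laid head to tail, and long runs are also called satellite DNA. The chromosomes of C. elegans are divided into gene-rich centres with little recombination and arms with more recombination, and repeats are known to be denser on the arms. Reads from near-identical copies cannot be placed on one copy with certainty, and copies that the assembly lacks add their reads to the copies it holds. REF-1 belongs to a nematode group of HES-related basic helix-loop-helix repressors, and Notch signalling switches on several genes of the group in the embryo.

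The sequences under the strongest entries show repeats of short, closely copied units, which fell into different groups by sequence. M1, M2 and M3 held the highest signals of the list, M4 was the strongest member of the largest group of related repeats, and M5 and M53 belonged to the same group. Each line gives 3 successive units of the ce11 assembly from the plus strand, 5′ to 3′, with the middle unit in capitals. The positions are chrX:15811082-15811159 for M1, chrX:11785797-11785874 for M2, chrIII:7594894-7594971 for M3, chrIII:1299935-1300009 for M4, chrX:110477-110557 for M5 and chrIII:3335117-3335191 for M53.
M1: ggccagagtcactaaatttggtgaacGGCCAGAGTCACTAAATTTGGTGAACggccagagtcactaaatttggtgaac
M2: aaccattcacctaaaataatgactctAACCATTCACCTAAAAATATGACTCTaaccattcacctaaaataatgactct
M3: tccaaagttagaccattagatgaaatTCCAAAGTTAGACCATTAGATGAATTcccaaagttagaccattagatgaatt
M4: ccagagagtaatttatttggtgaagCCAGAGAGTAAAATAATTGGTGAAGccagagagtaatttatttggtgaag
M5: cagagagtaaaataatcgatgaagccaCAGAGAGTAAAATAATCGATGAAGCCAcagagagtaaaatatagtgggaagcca
M53: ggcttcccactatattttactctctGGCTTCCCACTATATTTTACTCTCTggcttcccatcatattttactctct

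M34 was the first member of the authors' conservative set and carried nearly the unit of M3, M23 led a group with a 20 bp unit, and M95 came from a group of which every member was in that set. They lie at chrII:5097607-5097684, chrV:16708968-16709027 and chrIV:15896036-15896155, written in the same way.
M34: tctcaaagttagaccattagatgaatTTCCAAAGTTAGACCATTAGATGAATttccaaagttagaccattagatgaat
M23: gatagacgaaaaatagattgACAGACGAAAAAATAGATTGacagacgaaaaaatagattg
M95: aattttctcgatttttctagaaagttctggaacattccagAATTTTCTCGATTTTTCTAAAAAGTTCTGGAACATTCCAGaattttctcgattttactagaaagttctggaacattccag

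Units with periods near those of M1 to M5 were common. The median period of the 276 members was 27 bp, with quartiles of 25 and 45 bp. A period of 25, 26 or 27 bp was found for 34, 33 and 30 members, together 97 of 276 (35.1%). The next most frequent period, 20 bp, was found for 15 members. The repeats were close copies: the median self-match at the best shift was 91.3%, and only 5 members also met the 75% limit at a shift of 1 to 7 bp. The members just inside the limit had self-matches of 75.1%, 75.3% and 75.5%, and the entries just outside it had 74.9%, 74.9% and 74.7%. At the other edge of the rule, the last member had a signal of 56.6 and the first tandem entry beyond rank 3000 had 56.3.

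The strongest entries of the list were mostly on tandem repeats. Members made up 8 of the first 10 entries, 19 of the first 25, 35 of the first 50 and 53 of the first 100. Their share was 25% of ranks 101 to 300, 12.9% of ranks 301 to 1000 and 4.15% of ranks 1001 to 3000. After rank 3000, 1.13% of entries met the sequence rule, beside 1.02% of all windows placed every 10 bp along the genome. The members' signal had a median of 107.0 with quartiles of 68.2 and 224.8, and that of the other entries a median of 64.1 with quartiles of 59.6 and 75.5. Signal took part in the choice of members, so these values are a description.

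The strongest candidate of the list, M1, lay at chrX:15810945-15811213 on the right arm of X, with a signal of 4694 on the authors' scale, which is not stated. Its signal was 2348 in the first input and 2540 in the second input of the comparison between replicates, which the list does not tie to a replicate number. It lay in a run of 26 bp units that spanned 3821 bp, and M8, at chrX:15808107-15808284 in the same run, had a signal of 1057 with 566.1 and 543.3 in the inputs. M2, at chrX:11785713-11785932, had a signal of 2760 with 1153 and 1650 in the inputs. Its nearest protein-coding start was that of Y102F5A.1, 1493 bp away. Both inputs placed these runs far above the median member, and the second input was the higher one at M1 and M2 but not at M8.

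M3, at chrIII:7594748-7595083, had a signal of 1672, with 657.7 in the first and 1024 in the second input. It was the one among the 12 strongest members that fell in a promoter window, 338 bp from the start of Y80D4G.2. M4, at chrIII:1299875-1300051, had a signal of 1138 with 551.4 and 670.8 in the inputs, and the nearest start was that of the F-box gene fbxa-28. M5, at chrX:110406-110591 near elk-2, had a signal of 1112 with 489.4 and 632.6. These 3 members shared the order of the inputs, with the second above the first.

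M6, at chrV:5284046-5284279, had 613.6 and 609.1 in the inputs, and M7, at chrI:10947481-10947658, had 542.5 and 543.3. M9, at chrII:14337728-14337926, had 412.8 and 594.0, and M10, at chrIV:2828869-2829040 near the C-type lectin gene clec-80, had 454.7 and 517.1. The inputs were thus nearly equal at M6 and M7, and the second was higher at M9 and M10. M11, at chrX:5056846-5057058, had 333.6 and 521.5, and M12, at chrIII:5357854-5358045, had 369.7 and 547.1. All 12 of the strongest members lay outside protein-coding genes, 6 of them on chromosome arms, and none of the 12 was in the conservative set.

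The inputs are part of the signal that chose the members, and their joint values are a description. Pearson's correlation of the log2 input signals was 0.900 over the 276 members and Spearman's was 0.818, against 0.611 and 0.137 over the 2724 other entries. The points share 2 libraries, neighbouring members share a repeat run, and taking entries by their joint signal cuts off pairs that are low in both inputs, so no p is given. Members also span a wider range of signal than the other entries, which raises a correlation, so nothing is read from the difference. The ratio of the second to the first input had a median of 0.21 on the log2 scale for members, with quartiles of -0.18 and 0.57. For the other entries it was 0.29, with quartiles of -0.10 and 0.67. The second input was higher at 176 of 276 members (63.8%) and at 69.1% of the other entries. A ratio beyond 2-fold in either direction was found at 27 members (9.78%) and at 13.2% of the other entries, shares whose exact 95% intervals overlapped (6.55 to 13.9 and 11.97 to 14.5).

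Of the 27 members with a ratio beyond 2-fold, 9 had a signal above the members' median. M144, at chrX:7077562-7077837, had 110.6 in the first and 30.3 in the second input, a log2 ratio of -1.87, the lowest of all members. M276, at chrI:3990526-3990801, had 13.0 and 41.9, a log2 ratio of 1.69, the highest. The 3 highest and 3 lowest ratios all belonged to members with scores under 830, the limit that corresponds to a global irreproducible discovery rate (IDR) of 0.01. The IDR measures how alike peaks rank in 2 inputs.

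**Figure D1:**
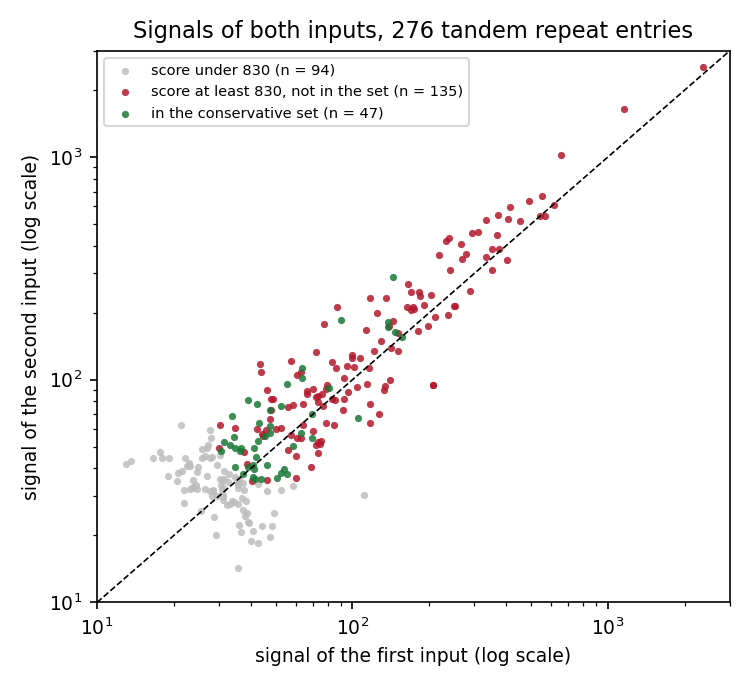
Signal of the first input (horizontal) and of the second input (vertical) for the 276 members, on log axes in the authors' units. Each point is a member, coloured by whether it was in the conservative set, absent from it with a score of at least 830, or below that score, and the dashed line marks equal signals. Members spread along the line up to 2348 and 2540, and the highest points were absent from the set.

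High scores and membership of the thresholded sets went apart at tandem repeats. A score of at least 830 was reached by 182 of 276 members (65.9%, exact 95% interval 60.0 to 71.5), where 27.4% of all 3000 entries reached it. The conservative thresholded set held 47 members (17.03%, interval 12.8 to 22.0), where it held 21.6% of the 3000. Signal and score come from the same comparison that chose the members, so nothing is read from these shares. The remaining 135 members had a score of at least 830 but were absent from the conservative set, and 94 scored below the limit.

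Of the entries with a score of at least 830, 47 of 182 members were kept (25.8%, interval 19.6 to 32.8) and 601 of 640 other entries (93.9%, interval 91.8 to 95.6). Members supplied 135 of the 174 entries that were absent in spite of their score (77.6%). The same held over the whole list, where 138 of 180 such entries lay on tandem repeats. The difference stood at each band of rank. Among ranks 1 to 100, 4 members were kept and 49 were absent, against 40 and 7 of the other entries. At ranks 101 to 300 the members split into 7 kept and 43 absent, and the other entries into 139 and 11. At ranks 301 to 1000, 33 members were kept and 39 absent, against 389 and 20, and at ranks 1001 to 3000, 3 were kept and 4 absent, against 33 and 1. The first kept entry of the list stood at rank 10 and the first kept member, M34, at rank 48.

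**Figure D2:**
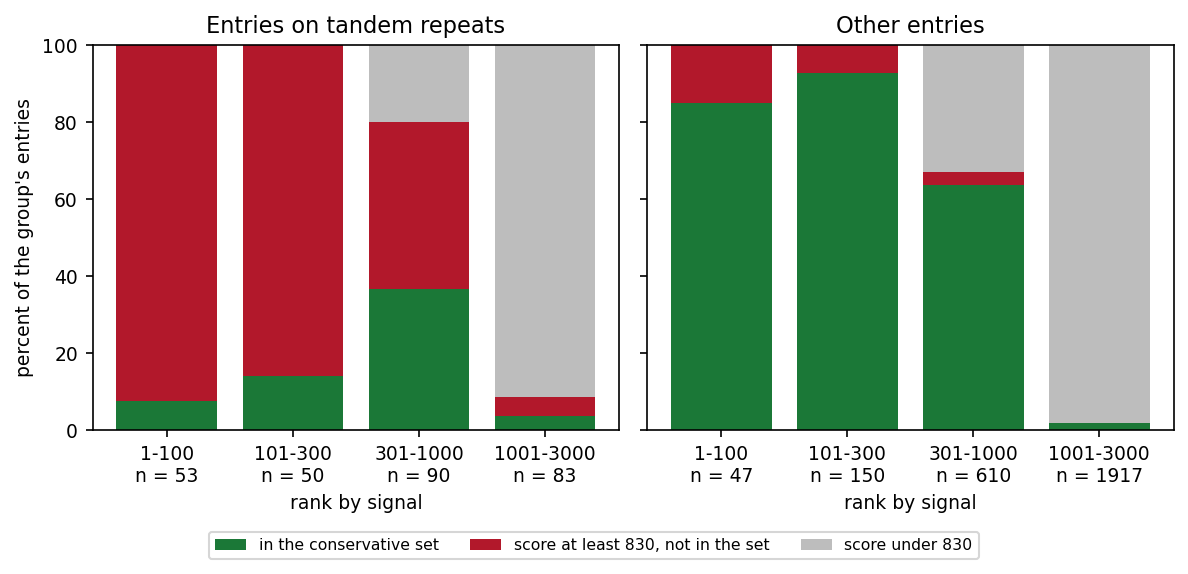
Percent of members (left) and of other entries (right) in each band of rank, divided into entries in the conservative set, entries with a score of at least 830 absent from it, and entries below that score. Among the first 100 entries, 49 of 53 members and 7 of 47 other entries were absent from the set.

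Kept and absent members did not mix within a repeat run. Members lay in 191 runs, of which 143 held 1 member and could not show a mix. In none of the 48 runs with 2 or more members did a kept and an absent member occur together. Some of these 48 held at most 1 member with a score of at least 830 and could not show a mix either. The number of runs that could was not counted. The smallest distance from a kept member to an absent entry was 10051 bp. Of the 39 other entries that were absent, 14 had their summit inside a tandem run and 12 lay within 1100 bp of a member, a distance chosen after the values were seen. The accompanying notes name, for the thresholded sets alone, a further file without saying what it holds, and its part in these absences was not tested.

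The authors' further sets gave like counts. A further thresholded set of both replicates had 43 members (15.6%), where it had 21% of the 3000 entries, and 39 of the 47 kept members were among them. Of the 135 absent members, 0 were in that set. The own thresholded set of replicate 1 overlapped 20 members (7.25%), where it overlapped 11.2% of the 3000, and that of replicate 2 overlapped 26 (9.42%), where it overlapped 13.1%. Both own sets overlapped 14 members (5.07%) and 249 of the other entries (9.14%). No absent member overlapped either own set. In contrast, 31 of the 47 kept members overlapped at least one of them. These sets rest on the same libraries as the choice of members.

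Kept and absent members were alike in the medians of period and self-match, and differed in position and in the spread of uniqueness. The median period was 25 bp for kept and 27 bp for absent members, and the median self-match was 91.3% and 94.2%. The median length of the run was 1461 bp for kept and 2141 bp for absent members. Kept members had a median signal of 94.8, absent ones of 195.8 and those below the score limit of 63.0. The share of 36-base words that occur once in the genome had a median of 12.05% in kept and 7.83% in absent members, with upper quartiles of 52.4% and 19.3%. At least 50% of these words were unique at 13 of 47 kept members (27.7%, interval 15.6 to 42.6) and at 2 of 135 absent ones (1.48%, interval 0.180 to 5.25). Chromosome arms, the outer 25% of the length at each end, held 32 of 47 kept members (68.1%, interval 52.9 to 80.9), 41 of 135 absent ones (30.4%, interval 22.8 to 38.9) and 66 of the 94 below the score limit (70.2%, interval 59.9 to 79.2). These shares count members, several of which can share a run, and kept and absent members did not mix within a run. The intervals therefore understate the uncertainty, and shares by run were not compared.

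Members kept in the conservative set and overlapping the own sets of both replicates included members of the same groups as absent ones. M34, at chrII:5097511-5097656 near C04G6.6, had a signal of 441.5, with 144.4 in the first and 288.6 in the second input. M58, at chrV:5075488-5075614, had 90.3 and 185.2. Both belonged to the same group as the absent M3, and M34 shared 49.1% and M58 61.3% of 12-base words with it. Of the group to which the absent M4 and M5 belong, M48, at chrIII:2497926-2498052, was kept with 137.8 and 182.3, and M52, at chrI:6773015-6773149, with 156.6 and 155.9. The kept M53, at chrIII:3335055-3335201, had 137.6 and 172.8 in the inputs. With M4, M48 shared 30.8%, M52 31.7% and M53 21.1% of 12-base words, and M5 itself 12.2%, so members of this group are joined through others and differ from each other.

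Of the other members in both own sets, M87, at chrX:1375175-1375450 near the F-box gene fbxa-190, had 63.7 and 113.4. M93, at chrV:14756594-14756869, had 105.0 and 67.1, with the first input above the second. M95, at chrIV:15895938-15896213 near the chemoreceptor gene srv-14, had 80.7 and 92.1. M99, at chrI:6772561-6772836 near unc-87, had 63.5 and 101.3, and M54, at chrIII:2499397-2499548, had 147.3 and 163.2. Of the 14 members in both own sets, 12 lay outside protein-coding genes and 2 in introns, and the first input was the higher one at 3.

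Members fell into groups of related repeats. Members were joined where at least 50% of the smaller set of 12-base words was shared, on either strand. This gave 117 groups, 88 of a single member and 29 of 2 or more, which together held 188 members. The 6 largest groups held 117 members, and 11 of the 29 were found on 2 or more chromosomes. Members of a group share sequence, so they are not independent sites.

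The largest group held 68 members (24.6%) in 32 runs on all 6 chromosomes. Its median period was 27 bp, and its signals ran from 60.0 to 1138 with a median of 198.8. It had 11 kept, 49 absent and 8 low-scoring members, with 31 on arms and 37 in centres. Across the genome 51 runs carried its sequence, and 32 of them held a member while 39 held any candidate of the list. M4, M5, M9, M10 and M11 of the 12 strongest belonged to it. The unit was not constant within a run: the last unit of M5 printed above holds GTGGGAA, and the units before it do not.

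The second group had 13 members on I and X, with periods of 32 to 85 bp and a median of 32 bp. It lay wholly in chromosome centres, with 12 absent members and 1 below the score limit. Another, led by M3, had 11 members on 5 chromosomes, all with a period of 26 bp, of which 2 were kept and 8 absent. The group of M23 had 11 members in 11 different runs and a median period of 20 bp, also with 2 kept and 8 absent. In that group the log2 ratio had a median of 0.70, and M23, at chrV:16708867-16709002 near clec-9, had 238.6 in the first and 433.3 in the second input. The group of M2 and M12 had 8 members in 2 runs on III and X, 6 of them absent. M31, at chrII:8292466-8292567 near the neuropeptide gene nlp-55, led 6 members with a period of 79 bp in 2 runs of chromosome II, and had 250.9 and 214.0 in the inputs. Groups of repeats thus differed in how they spread, from one chromosome to all 6.

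One group stood on the other side of the authors' selection. Its 6 members, on III, IV and X and with a median period of 40 bp, were all kept, with signals from 91.1 to 174.9. The genome held 48 runs with this sequence, of which 6 held a member. M87 and M95 belonged to it, and so did M154, which lay in an intron of tir-1, a gene of innate immune signalling named here after its values were seen. All 6 carried TTCNNGAA, the inverted pair of sites that heat shock elements are built from, a string that was likewise chosen after seeing the sequences, and M95 as printed above holds it 6 times. Over all members the string was in 14 of 276 (5.07%) and in 13.9% of all windows of the same length laid end to end along the genome, so members as a whole did not hold it more often.

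Runs whose best-matching window had a period of 25 to 27 bp held members more often than other runs, a class chosen after the periods were seen. To count runs without regard to the list, the genome was tiled with windows every 10 bp, and windows that met the sequence rule were merged over gaps of up to 100 bp. This gave 3462 runs, 1.72% of the length of the chromosomes. Of these, 191 (5.52%) held a member and 1391 (40.2%) held any candidate of the ranked list. The period of a run was taken at its best-matching window, and that of a member at its summit, so they can differ within a run. The median period was 40 bp for the 191 runs with a member, against 27 bp for members. Members with a period of 25 to 27 bp thus also lay in runs classed under other periods. By the best window, 92 runs (2.66%) had a period of 25 to 27 bp, and 32 of them held a member (34.8%, exact 95% interval 25.1 to 45.4). The shares for other periods were 6% for 8 to 14 bp, 4.99% for 15 to 24 bp, 3.82% for 28 to 50 bp and 5.02% for 51 to 100 bp.

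Runs of 25 to 27 bp were longer, with a median of 606 bp against 291 to 321 bp in the other classes, so they were also compared at like length. Among runs of up to 500 bp, 3 of 40 with this period held a member (7.5%, interval 1.57 to 20.4) and 52 of 2644 with any other period (1.97%, interval 1.47 to 2.57). Among runs over 500 and up to 2000 bp the shares were 13 of 31 (41.9%, interval 24.5 to 60.9) and 74 of 652 (11.3%, interval 9.02 to 14.04). Above 2000 bp they were 16 of 21 (76.2%, interval 52.8 to 91.8) and 33 of 74 (44.6%, interval 33.0 to 56.6). The share was higher for 25 to 27 bp in each class, and the intervals of the shortest and of the longest class overlapped. Many of these runs belong to 1 group of sequences, so they are not independent, and no test was made.

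**Figure D3:**
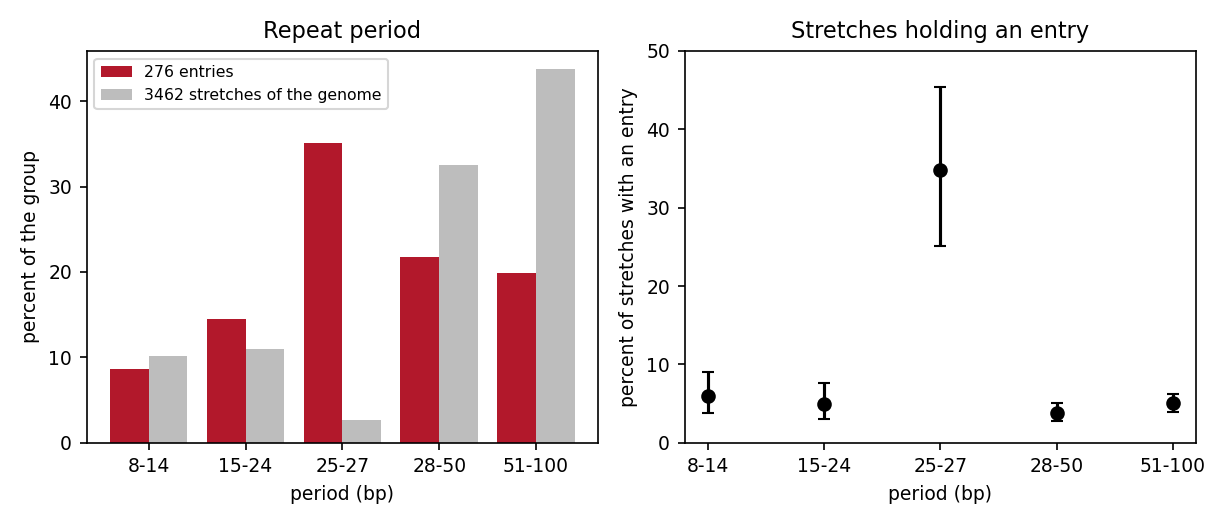
Left, percent of members and of the genome's tandem runs (called stretches) in each class of period in bp; right, percent of runs in each class that held a member, with exact 95% intervals. The class of 25 to 27 bp held 35.1% of members and 2.66% of runs, and 34.8% of its runs held a member. Periods were taken at the summit for members and at the best-matching window for runs, so the shares of members and of runs are unlike measures.

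Long runs held members more often than short ones. The median length was 801 bp for runs with a member, 311 bp for all runs and 291 bp for runs with no candidate. Counted by member, the run had a median length of 1436 bp, and the runs of members reached from 221 to 8051 bp. The length of the run over the period at the member's summit had a separate median of 51.2. It is not a count of copies, since periods can differ within a run. Of the 191 runs with members, 143 held 1 member and the most in a run was 6. Neighbouring members of a run were 663 bp apart at the median and at least 199 bp. The median distance from a summit to the nearest edge of its run was 308.5 bp, and the rule itself keeps summits about 100 bp or more from an edge.

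By chromosome position, members were spread differently from tandem repeats at large. Centres were taken as the length between the arms. Arms held 139 of 276 members (50.4%, interval 44.3 to 56.4) and 56.9% of the other entries (interval 55.0 to 58.7). The share of all 3462 runs on arms was 80.6% (interval 79.3 to 81.9), and that of the runs with a member was 61.3% (interval 54.0 to 68.2). A run in a centre held a member in 74 of 671 cases (11.0%, interval 8.76 to 13.6), and a run on an arm in 117 of 2791 cases (4.19%, interval 3.48 to 5.00). Any candidate of the ranked list, in contrast, was found in 40.9% of the runs on arms and in 37.1% of those in centres, and the share was higher on arms in each class of run length. Counted by sequence in place of runs, 65.6% of the genome windows that meet the rule lay on arms. With the centre taken as 33.3% to 66.7% of the length, 71.4% of members and 90.4% of runs counted as on arms.

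Run length and uniqueness of sequence moved with this difference. Members in centres lay in runs with a median of 2281 bp and had a median signal of 146.6, and members on arms in runs of 751 bp with a signal of 81.3. Within classes of length, the shares of runs with a member on arms and in centres were 0.910% and 1.68% up to 300 bp, 3.09% and 5.29% up to 500 bp, and 11.0% and 11.9% up to 1000 bp. They were 13.7% and 23.4% up to 2000 bp, and 40.8% and 63.0% above. The share was higher in centres in each class, and the intervals overlapped in each. Among runs with under 50% of their 36-base words unique, 53.7% of those with a member and 72.7% of all lay on arms. Among runs with at least 50% unique, the shares were 88.1% (37 of 42) and 90.3%. The part of length and uniqueness in the difference was not tested further.

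**Figure D4:**
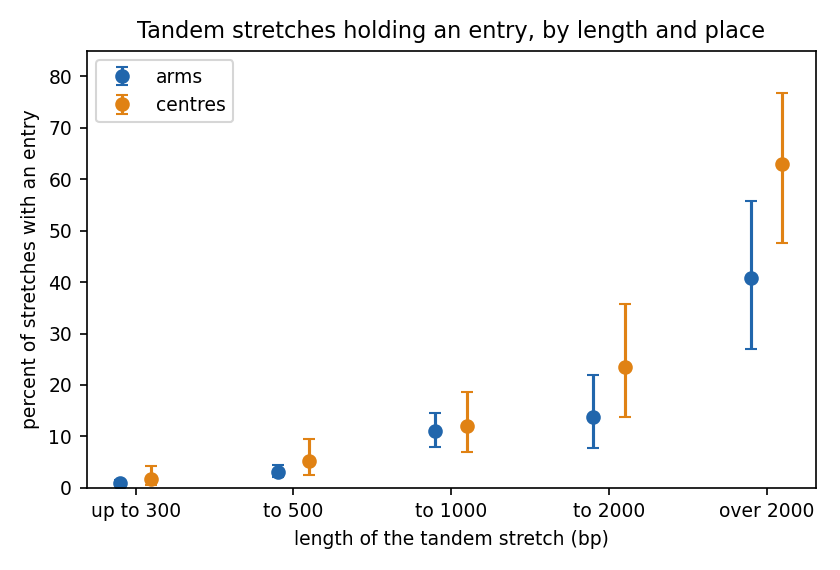
Percent of the genome's tandem runs (called stretches) that held a member, by class of run length in bp, on arms and in centres, with exact 95% intervals. Shares climb with length in both places, to 40.8% on arms and 63.0% in centres above 2000 bp.

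The members were nearly evenly divided among chromosomes, while repeats were not. Chromosomes I to V and X held 43, 41, 46, 48, 48 and 50 members, or 2.29 per Mb on V to 3.34 per Mb on III. Tandem runs were rarest on X, with 14.6 per Mb, and densest on III, with 48.8 per Mb. A member was found in 11.6% of the runs on X and in 4.16% to 7.38% of those on the autosomes.

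Little of the sequence under members was unique. The share of 36-base words that occur once in the genome had a median of 14.5% around members and of 100% around the other entries. At 70 members (25.4%) no such word was unique, and at 57 (20.7%) at least 50% were. The GC content had a median of 40.8% for members and 44.8% for the other entries. Uniqueness follows from the sequence rule in part, since a perfect repeat has few unique words.

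Members lay away from genes more often than the other entries. Of the members, 219 (79.3%, interval 74.1 to 84.0) were outside protein-coding genes, against 44.1% of the other entries (interval 42.2 to 45.9). Introns held 44 members (15.9%) against 32.7%, and exons 13 (4.71%) against 23.2%. The promoter window, from 1000 bp upstream to 200 bp downstream of a protein-coding start, held 13 members (4.71%, interval 2.53 to 7.92) against 31.9% of the other entries (interval 30.1 to 33.7). The median distance to the nearest protein-coding start was 3200 bp for members and 1180 bp for the other entries. None of the 276 members lay within 100 bp of a tRNA, snoRNA, snRNA or rRNA gene, which allows a share of up to 1.09%, against 340 of the other entries (12.5%).

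Of the members in genes, a signal above the members' median was found for 2 of the 13 in exons and 3 of the 44 in introns. The members named here were chosen after their values were seen. The strongest in an exon, M39 in Y95D11A.5, was absent from the conservative set and had 202.9 and 240.0 in the inputs. Another 4 exon members lay in ttn-1, which encodes a titin-like muscle protein, with a period of 48 bp. The strongest of these 4, M131, had 57.7 and 56.6 in the inputs. The exon member M146, in ugt-24, was kept with 33.7 and 68.9. The 3 strongest members in introns were kept, M103 in Y47H10A.4, M105 in Y51F10.4 and M126 in Y32F6A.5, with signals of 152.0, 148.3 and 123.5.

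Gene groups were counted by name at the gene that held the summit or, failing that, the nearest start within 5000 bp. Such a gene was found for 230 members and comprised 162 genes. F-box genes, which encode adaptors of protein degradation, were found at 11 members (3.99%) and 0.220% of the other entries. The 11 lay at fbxa-28, fbxa-55, fbxa-65, fbxa-75, fbxa-190 and fbxa-221, so several members shared a gene, and most were units of the largest group of repeats. C-type lectins, secreted or surface proteins that bind sugars, were found at 8 members (2.90%), namely at clec-9, clec-80 and clec-175, and at 0.771% of the other entries. Chemoreceptor genes were found at 7 members (2.54%) and 2.24% of the other entries. No member was at a MATH or BTB, nuclear hormone receptor, collagen, core histone or REF-1 family gene. Of the other entries, 4 (0.147%), 37 (1.36%), 29 (1.06%), 7 (0.257%) and 1 (0.0367%) were at these, in that order. Such shares are low, so nothing is read from the absence of members.

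Short strings known as binding sites were searched on both strands within 100 bp of each summit. Of the sites of HES-type basic helix-loop-helix proteins, those with CACG were not found under members. CACGCG, the class C site of such proteins, was in 0 of 276 members and in 8.44% of the other entries. A limit of 1.09% would follow if the 276 were independent, but members of a run or group share sequence. The best-matching windows of the 191 runs with a member held it in 0 cases, a limit of 1.57%, and related runs are not independent either. Runs with no candidate held CACGCG in 0.386% of cases, and all windows of the same length along the genome, end to end, in 2.21%. CACGTG, the E-box, was in 0 members, 6.90% of the other entries, 0.241% of runs with no candidate and 3.33% of genome windows. The form CACGNG, which contains both, was in 0 members, 25.04% of the other entries, 1.69% of runs with no candidate and 11.6% of genome windows. The members and the runs with no candidate were thus both poor in these strings.

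CACNAG, the N-box, was in 24 members (8.70%, interval 5.65 to 12.7), in 26.1% of the other entries, 3.67% of runs with no candidate and 18.5% of genome windows. The 24 came from 14 groups of repeats, and included all 5 of a group with a period of 45 bp led by M18, at chrIV:10945767-10945958, which had 402.9 in the first and 344.2 in the second input.

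Other strings common in promoters were also less frequent under members than under the other entries. GAGAGA was in 2.17% of members and 18.98% of the other entries, the GC box CCGCCC in 0 members and 11.2%, and GATAAG, read by GATA factors, in 1.45% and 7.16%. Over all genome windows the shares were 9.99%, 3.16% and 7.33%. TTAGGC, the unit of the C. elegans telomere, was in 8.70% of members and 7.64% of the other entries, with 9.13% of runs with no candidate and 5.01% of genome windows. Among members it was uneven, in 2 of 47 kept, 4 of 135 absent and 18 of 94 low-scoring ones. The control palindrome GCATGC was also lower, in 1.09% of members (interval 0.225 to 3.14) and 3.19% of the other entries (interval 2.57 to 3.92), though these intervals overlapped. It was in 0.386% of runs with no candidate and 1.84% of genome windows.

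GTGGGAA, the site of the Notch pathway factor LAG-1, was more frequent under members, and nearly all of its occurrences came from 1 group. It was in 39 members (14.1%, interval 10.2 to 18.8), 3.01% of the other entries, 1.74% of runs with no candidate and 2.40% of genome windows. Of the 39, 37 were units of the largest group, as in M5 and, on the minus strand, M53 printed above. It was in 5 of 47 kept, 31 of 135 absent and 3 of 94 low-scoring members. A string that belongs to a repeat unit is counted once for each member of that repeat, so the 39 do not stand for 39 separate sequences.

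GGTGAA and CCAGAG were read from the printed units after they were seen. GGTGAA was in 60 members (21.7%) of 16 groups, 9.21% of the other entries, 3.19% of runs with no candidate and 8.41% of genome windows. CCAGAG was in 50 members (18.1%) of 8 groups, 5.40% of the other entries, 2.37% of runs with no candidate and 4.62% of genome windows. By run it was in 9.95% of those with a member (interval 6.10 to 15.1), which overlapped the other entries (4.58 to 6.31). The shares by member count a run with several members more than once. As printed, M1 and M4 hold each string 3 times, once a unit, and M2 holds GGTGAA 3 times on the minus strand. M1, M2 and M4 were placed in different groups, so the strings recurred across groups of repeats that do not share 50% of their 12-base words.

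**Figure D5:**
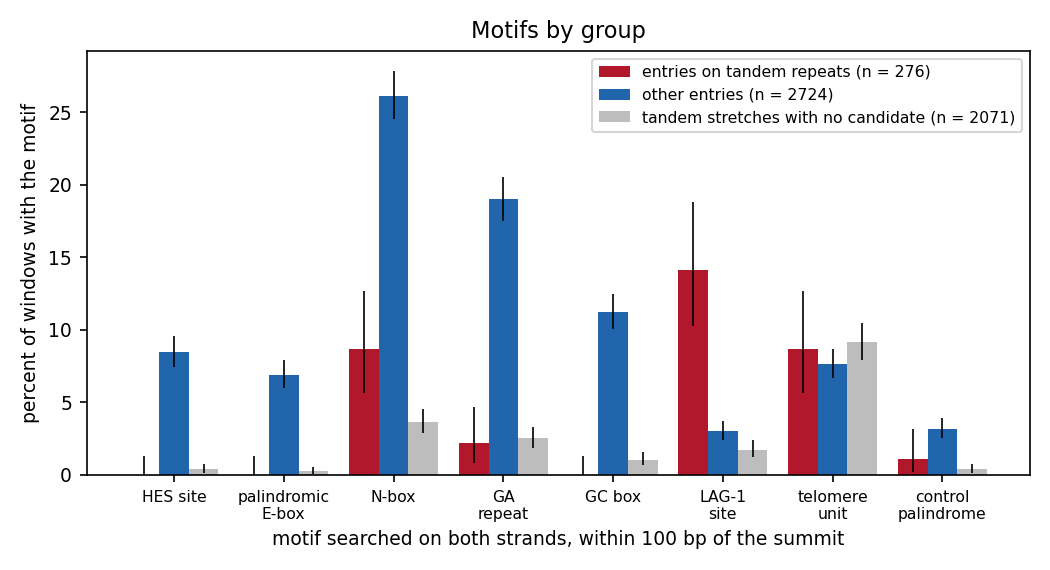
Percent of members, of other entries and of tandem runs with no candidate that held each of 8 strings on either strand, as bars with exact 95% intervals. The HES site, the E-box and the GC box were at 0 in members, and the LAG-1 site, at 14.1%, was the one that stood clearly above the other entries.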

How the data were processed

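ChIP-seq peak lists of 2 biological replicates of 1 group were used, as deposited by the authors on ce11. Aligner, peak caller and depth: not given in the sources used here. Peak signal is as deposited by the authors, its scale unstated. The authors' score, capped at 1000, follows the IDR: in all 72151 entries, scores of 830 or more went with a deposited −log10 value that stands for an IDR of 0.01 or less. The deposited offset gave the summit. Interval and signal of the first input recurred exactly in the own list of replicate 1 for 94.1% of the 3000 entries, and those of the second input in that of replicate 2 for 96.2%. In the own list of the other replicate, each input recurred for 0 of the 3000.

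The summit window was 201 bp. The period was the smallest shift within 5 percentage points of the best self-match. Sequence came from the RefSeq genome of the same assembly, genes from Ensembl release 115 (WBcel235). Runs, groups, 36-base words and 13 strings were computed with Python 3.11.15 and numpy 2.4.6. Only the measure of self-match and period was checked on simulated sequence, with planted units of 8 to 50 bp. With up to 10% of the bases redrawn at random, 100% met the rule, and with 20% redrawn 54.5% did. Longer units, runs, groups, words and strings were not checked in this way. Intervals are exact 95% binomial (Clopper-Pearson). They cover counting error only, and peaks are not replicates. A count of 0 was given a limit of 3 counts, which treats members as independent. Members that share a run or group are not, so the limit is too low for them. With 1 group there was no contrast and no p-value. Regions named were the 12 strongest members, the strongest of each of the 6 largest groups, the 3 highest and 3 lowest ratios, and up to 10 more in both own sets. Any others are marked as chosen after their values were seen. Members, lists, strings and alternatives were chosen with earlier results of these data known.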

Additional observations from a re-analysis of the deposited data

How the results depend on the processing

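The number of members was 201 at a self-match of 85%, 238 with 150 bp on each side and 218 in the first 1500 entries. It was 57 for members with at least 50% of their 36-base words unique and 182 for those with a score of at least 830, both restrictions chosen after seeing the data. The share on arms, 50.4% in the report, was 43.8% at a self-match of 85%, 61.3% with one entry per run, 82.5% with at least 50% of the words unique, 40.1% with a score of at least 830 and 71.4% with the centre as 33.3% to 66.7% of the length. The share kept, 17.03%, was 22.8% with at least 50% of the words unique and 25.8% with a score of at least 830. With either replicate's own ranked list alone, the number of members was 261 to 273, the share on arms 48.3% to 49.1%, the share kept 16.9% to 17.9% and the share with CACGCG 0%. Of 49 alternative values, 40 stayed within the interval or within 1.5 times of the reported value. Some of the 40 were fixed beforehand, since any subset of the members holds CACGCG in 0 cases. A further ranked list of both replicates repeated the reported values. The count of 40 is therefore not a measure of stability. The median log2 ratio ran from 0.15 to 0.27. The cause of the shifts was not tested, and each restriction leaves fewer members. The centre as 33.3% to 66.7% of the length keeps all 276 members and by definition counts more of the length as arms. No paired analysis was possible because the labels give 1 group. Depth is unknown, so the precision of single signals cannot be given.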
